A study of Bos taurus with 11 samples.

Results

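*miR-140* and *miR-455* are microRNAs whose genes lie within the genes of other proteins, *WWP2* and *COL27A1*. They were measured here in mammary biopsies of lactating dairy cows, 5 Holstein and 6 Montbéliarde, with 1 small RNA library per cow. The members were the rows of the count table with the ids bta-miR-140, bta-miR-455-5p and bta-miR-455-3p, and all 3 were found among the 796 miRNA rows. The study asked whether the mammary miRNomes of the breeds differ. All cows were in mid-lactation on the same diet, and the biopsy site was at the rear of the udder. The sample records give breed as the only factor and name no treatment.

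MicroRNAs are short RNAs that pair with mRNAs through their first bases and lower the stability or translation of these mRNAs. Each is cut from a hairpin, so that a precursor can give a product from its 5′ arm (5p) and another from its 3′ arm (3p). *WWP2* encodes a ubiquitin ligase and *COL27A1* a fibrillar collagen. *miR-140* and *miR-455* are best known from cartilage, where the transcription factor SOX9 drives their expression and where *miR-140* restrains ADAMTS5, a protease that cuts the proteoglycan aggrecan. In the mammary gland, collagens and proteoglycans form the stroma around the secretory epithelium, and the biopsy holds both.

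The RefSeq annotation of ARS-UCD2.0, a later bovine assembly than the one the authors used, places *MIR140* inside *WWP2* and *MIR455* inside *COL27A1*. It lists 0 other miRNA genes within 10000 bases of either. The table holds 1 row named *miR-140*, whose id does not state the arm, and 2 rows named *miR-455*, 1 per arm. The mRNAs of the host genes were not measured.

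Libraries are named by breed and a number that follows the order of their tags. Counted reads ranged from 7431936 to 16808976 per Holstein library and from 6087865 to 11395785 per Montbéliarde library. The tags of the breeds do not interleave, so that an effect of tag order, if the order has a meaning, cannot be told apart from breed. Levels are given as normalized read counts, which are the counts divided by 1 size factor per library. Of 11 epithelial miRNAs listed, 10 were in the table, and each had reads in every library, as did the 6 stromal miRNAs listed. Montbéliarde 2 and Montbéliarde 5 stood apart, with mean log2(CPM + 1) levels of the epithelial list of 9.55 and 9.73, against 10.16 to 10.48 in the other libraries. The fold changes, the arm ratio, the ratio of *miR-455* to *miR-140*, and the correlations between members and with the lists are given with and without them. The comparison of precursors, the most correlated miRNAs and the fits with covariates are given with all libraries only.

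*miR-140* was by far the most abundant of the 3. It ranked 69 of the 754 miRNAs with reads, by mean normalized read count, whereas *miR-455-5p* ranked 197 and *miR-455-3p* 227. The mean over the 11 libraries was 5549 for *miR-140*, 141 for *miR-455-5p* and 77.6 for *miR-455-3p*. The ranges of *miR-140* and of either *miR-455* arm did not overlap, while those of the *miR-455* arms did. Reads of different miRNAs can be captured with different efficiency, so that this order is one of reads. The 3 miRNAs drew 63319, 1573 and 900 reads in total. Counting error alone came to at most 1.76% of the count of *miR-140* in a library, 12.5% of that of *miR-455-5p* and 16.01% of that of *miR-455-3p*.

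The fold changes of all 3 miRNAs pointed to a higher level in Montbéliarde, but none passed the test over all miRNAs. With edgeR's quasi-likelihood test on 550 miRNAs, 0 of 3 had an adjusted p of at most 0.05, against 0.364% of all tested. Before adjustment, *miR-140* and *miR-455-5p*, 2 of 3, had p-values up to 0.05, against 14.2% of all tested in either direction and 7.64% with the higher level in Montbéliarde. DESeq2 called 1 of the 3, *miR-455-5p*, and limma called 0. Of all tested miRNAs, 52.4% had a fold change in this direction in edgeR.

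*miR-140* had normalized read counts of 4329, 4843, 5379, 4296 and 5037 in Holstein 1 to 5. In Montbéliarde its lowest value was 5204, the median 6057 and the highest 7883, in Montbéliarde 2. Of the 6 Montbéliarde libraries, 5 were above every Holstein library, and only Holstein 3 reached into the Montbéliarde range. The means were 4777 ± 465.7 (SD, n = 5) and 6193 ± 989 (SD, n = 6). The log2FC (Montbéliarde over Holstein) was 0.37 with a standard error of 0.15 (edgeR's quasi-likelihood test, unadjusted p = 0.0244, adjusted p = 0.269).

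*miR-455-5p*, the more abundant product of the *COL27A1* hairpin, had normalized read counts of 74.6, 101, 133, 87.1 and 83.4 in Holstein 1 to 5. Its lowest Montbéliarde value was 123, the median 170.3 and the highest 292, again in Montbéliarde 2. Of the 6 Montbéliarde libraries, 4 were above every Holstein library, and 4 of the 5 Holstein libraries were below every Montbéliarde library. Holstein 3 was also the highest Holstein library here. The log2FC was 0.88 with a standard error of 0.25 (edgeR's quasi-likelihood test, unadjusted p = 0.00349, adjusted p = 0.171), which placed the miRNA 9th by p-value. DESeq2 on the same counts gave an adjusted p of 0.0306 and called 4.86% of the miRNAs that received an adjusted p. The study itself used DESeq2, in an earlier version, and lists *miR-455-5p* as differentially expressed between the breeds.

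*miR-455-3p*, the product of the other arm, had normalized read counts of 64.1, 49.1, 106, 42.9 and 50.8 in Holstein 1 to 5. In Montbéliarde the lowest value was 53.3, the median 64.1 and the highest 176. The breeds overlapped, though 3 of the 5 Holstein libraries were below every Montbéliarde library. Only Montbéliarde 2 and Montbéliarde 5, at 176 and 123, were above every Holstein library. The log2FC was 0.51 with a standard error of 0.35 (edgeR's quasi-likelihood test, unadjusted p = 0.168, adjusted p = 0.505). Without these 2 libraries, a setting chosen after seeing the data, the log2FC of *miR-455-3p* was 0.01 with a standard error of 0.26. That of *miR-455-5p* was then 0.69 with a standard error of 0.21, and that of *miR-140* 0.32 with a standard error of 0.12, and neither passed the adjusted threshold.

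**Figure D1:**
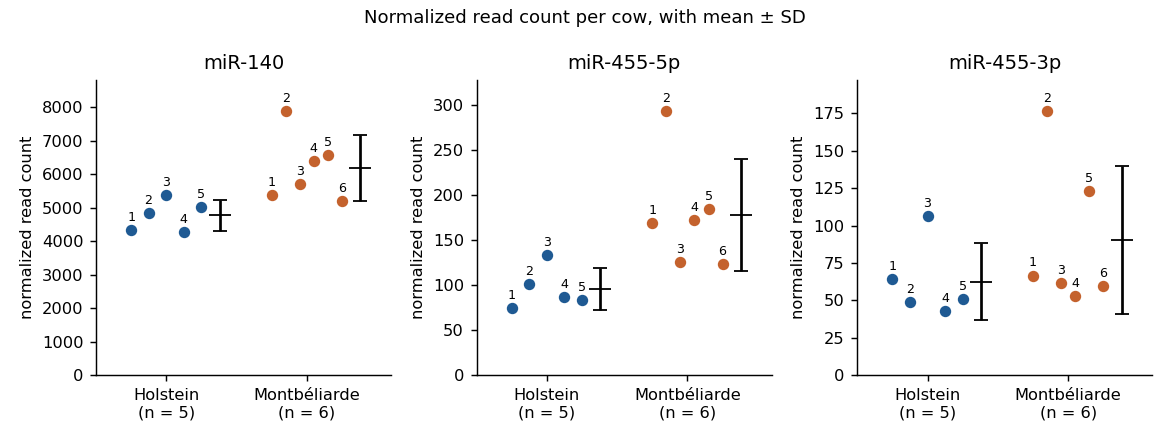
Normalized read count (vertical axis, linear and starting at 0) of *miR-140*, *miR-455-5p* and *miR-455-3p* in each cow, by breed. Points are libraries numbered within their breed, and bars are the mean ± SD of 5 Holstein and 6 Montbéliarde cows. Montbéliarde 2 was the highest library in each panel, at 7883, 292 and 176, and Holstein 3 the highest of its breed, at 5379, 133 and 106.

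The breeds overlapped in each of the 3 miRNAs, so that 0 of 3 had breeds without overlap, against 2% of all tested. Holstein 3, the deepest library with 16808976 counted reads, narrowed the breed difference in each of the 3. Without it, the log2FC rose to 0.46 for *miR-140*, to 1.07 for *miR-455-5p* and to 0.83 for *miR-455-3p*. The last of these moved by more than 1.5 times, and no adjusted p passed 0.05. Leaving out Montbéliarde 2 lowered the log2FC of *miR-455-3p* to 0.31.

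The spread between cows of the same breed was small for *miR-140* and large for *miR-455-3p*. The SD within breeds, on the log2(CPM + 1) scale, was 0.18 for *miR-140*, 0.36 for *miR-455-5p* and 0.55 for *miR-455-3p*, with a median of 0.30 over all tested miRNAs. Among the 30 miRNAs whose mean level was within a factor of 2 of that of *miR-140*, the median SD was 0.33. For the 71 miRNAs so chosen around *miR-455-5p* it was 0.38, and for the 78 around *miR-455-3p* it was 0.42. *miR-140* thus varied less than most miRNAs of its level, and *miR-455-3p* more.

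The 5p arm gave more reads than the 3p arm of *miR-455* in 11 of 11 libraries. Its share of the *miR-455* reads was 53.8% in Holstein 1, 67.3% in Holstein 2, 55.7% in Holstein 3, 67.0% in Holstein 4 and 62.1% in Holstein 5. In Montbéliarde the lowest share was 59.9%, the median 67.3% and the highest 76.4%. The Wilson 95% interval was 46.0 to 61.4% in the library with the lowest share, Holstein 1, and 70.5 to 81.4% in that with the highest, Montbéliarde 4. It lay above 50% in 10 libraries, all but Holstein 1. These intervals cover counting error only, since copies made by PCR were not told apart.

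**Figure D2:**
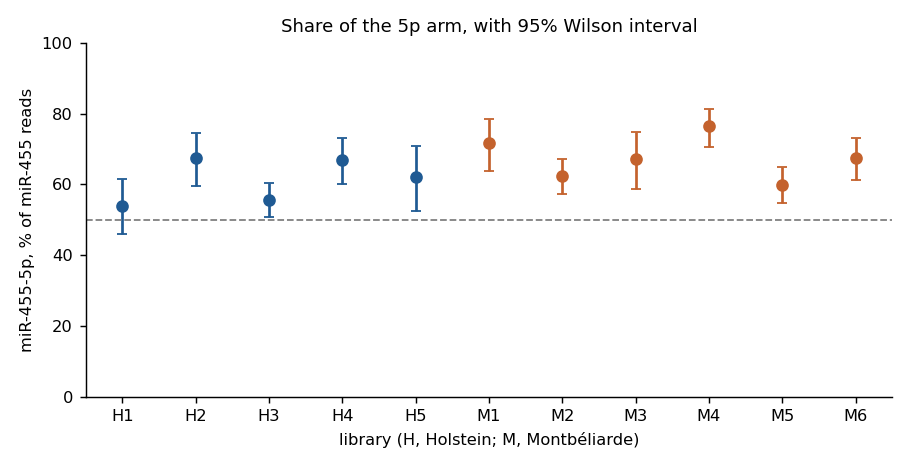
Share of miR-455-5p among the reads of both miR-455 arms (vertical axis, in %) in each library (horizontal axis), with the 95% Wilson interval as bars and an even split of 50% as a dashed line. Shares ran from 53.8% in Holstein 1 to 76.4% in Montbéliarde 4, and only the interval of Holstein 1 reached below the dashed line.

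A ratio within a library does not depend on normalization and shows whether 2 miRNAs differed between breeds by the same factor. In Holstein, the log2 ratio of *miR-455-5p* to *miR-455-3p* averaged 0.66 ± 0.38 (SD, n = 5), and in Montbéliarde it averaged 1.06 ± 0.40 (SD, n = 6). The difference, 0.40 with a 95% interval of -0.14 to 0.93, did not pass the exact permutation test (two-sided, p = 0.117). Without Montbéliarde 2 and Montbéliarde 5, the difference was 0.61 (exact permutation test, p = 0.0317), and without Montbéliarde 5 alone it was 0.50 (exact permutation test, p = 0.0476). Montbéliarde 5 held the lowest 5p share of its breed, so that leaving it out could only widen the difference. Over single libraries left out, the difference was between 0.28 and 0.50 (exact permutation test, p between 0.0476 and 0.257).

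For each *miR-455* read of either arm, the Holstein libraries held 31.3 ± 5.50 (SD, n = 5) reads of *miR-140*, and the Montbéliarde libraries 24.7 ± 5.24 (SD, n = 6). On the log2 scale, the ratio of *miR-455* to *miR-140* was higher in Montbéliarde by 0.35, with a 95% interval of -0.07 to 0.79 (exact permutation test, two-sided, p = 0.0823). The 5p arm alone over *miR-140* was higher in Montbéliarde by 0.49 (exact permutation test, two-sided, p = 0.0130), and the 3p arm alone by 0.09 (exact permutation test, p = 0.766). Over the 4 ratios compared, the Benjamini-Hochberg adjusted value for the 5p arm was 0.0519, so that it did not pass the threshold after adjustment. Without Holstein 3, the ratio of both arms to *miR-140* was higher by 0.46 (exact permutation test, p = 0.00952). Without Montbéliarde 2 and Montbéliarde 5 it was higher by 0.17 (exact permutation test, p = 0.302).

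The arms of *miR-455* were set beside those of the other precursors for which both arms had at least 500 reads in total, a limit chosen after seeing the data. There were 19 such precursors, *miR-455* included. The correlation of the arms across the 11 libraries was 0.75 for *miR-455*, the 4th highest, with a median of 0.42 and a range of -0.24 to 0.95. Without Montbéliarde 2 and Montbéliarde 5 that of *miR-455* was 0.31, and its rank was not computed. The SD of the log2 arm ratio within breeds was 0.39 for *miR-455* and 0.41 at the median. The difference between breeds in this ratio was the 4th largest in size, at 0.40 against a median size of 0.20.

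*miR-140* and *miR-455-5p*, which come from different hosts, followed each other closely from cow to cow. On the log2(CPM + 1) scale Pearson's r was 0.92 and Spearman's rho 0.88 (permutation tests, p = 8.00e-05 and p = 0.000800, n = 11, adjusted over 3 pairs p = 0.000240 and p = 0.00240). The points share the library and its scaling factor. Without Holstein 1 and Montbéliarde 2, which were farthest from the median of *miR-455-5p*, r was 0.83. With each value centred on the mean of its breed r was 0.84, and without Montbéliarde 2 and Montbéliarde 5 it was 0.83.

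The 2 arms of *miR-455* were less closely related, with r = 0.75 and rho = 0.60 (permutation tests, p = 0.0112 and p = 0.0577, n = 11, adjusted over 3 pairs p = 0.0168 and p = 0.0865). This relation weakened mainly without the libraries with the highest levels. Without Holstein 1 and Montbéliarde 2, r was 0.64 (permutation test, p = 0.0628), and without Montbéliarde 2 and Montbéliarde 5 it was 0.31 (permutation test, p = 0.449). Without Holstein 1 alone it was 0.81, and centred on breed means 0.79. *miR-455-3p* and *miR-140* had r = 0.74 and rho = 0.55 (permutation tests, p = 0.0173 and p = 0.0877, n = 11, adjusted over 3 pairs p = 0.0173 and p = 0.0877). Without Montbéliarde 2 and Montbéliarde 5, r fell to 0.22 (permutation test, p = 0.551). The differences between these correlations were not tested.

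**Figure D3:**
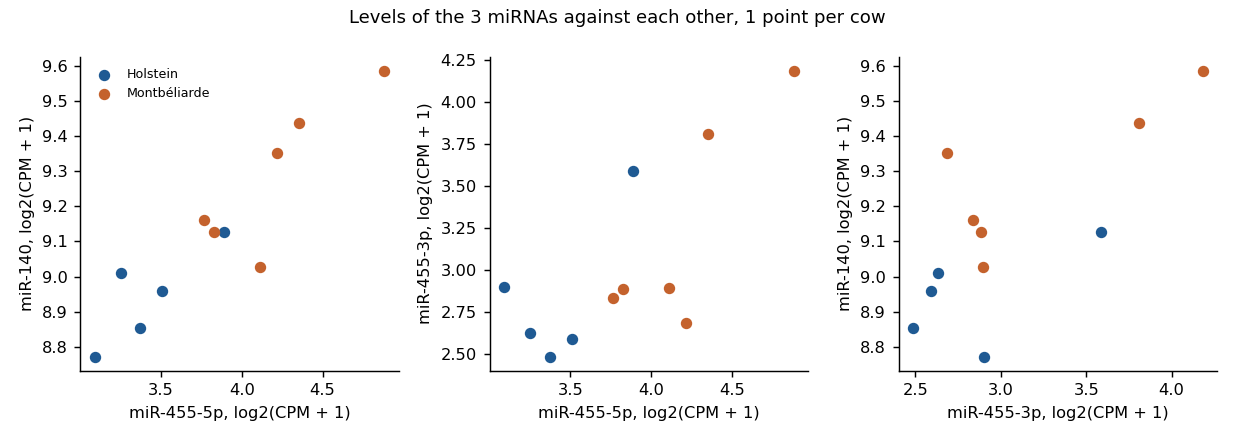
Levels of the 3 miRNAs against each other on the log2(CPM + 1) scale (both axes), with 1 point per cow and the breeds in different colours. *miR-140* rose with *miR-455-5p* along the whole range (left, r = 0.92), while in the middle and right panels (r = 0.75 and 0.74) the *miR-455-3p* level of 3 cows, Montbéliarde 2, Montbéliarde 5 and Holstein 3, lies well above that of the others.

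Over the tested miRNAs with a mean of at least 10 CPM, *miR-455-5p* had the highest correlation with *miR-140* of 213 compared, whose median was -0.05. Next came *miR-1271* and *miR-28*, with r = 0.92 and r = 0.91, then *miR-130a* with r = 0.91 and *miR-379* with r = 0.87. The order changed with values centred on breed means. Then r was 0.89 for *miR-28*, 0.86 for *miR-130a*, 0.84 for *miR-455-5p*, 0.83 for *miR-1271* and 0.81 for *miR-379*. The miRNAs most like *miR-455-5p* were *miR-130a* (r = 0.93), *miR-140* itself, *miR-1271* (r = 0.92), and *miR-3604* and *miR-199a-3p*, each with r = 0.91. With values centred on breed means, r was 0.90 for *miR-130a*, *miR-3604* and *miR-199a-3p*, and 0.84 for *miR-140* and *miR-1271*. *miR-3604* and *miR-199a-3p* had counts in a nearly constant ratio of 1.02 and may share reads. *miR-199a-3p* is a product of a hairpin that is mainly expressed in mesenchymal cells.

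*miR-455-3p* had other neighbours. The most alike were *miR-218* and *miR-155*, each with r = 0.89, *miR-342* with r = 0.88, and *miR-222* and *miR-99a-5p*, each with r = 0.86. Of these, *miR-155* is known from activated lymphocytes and macrophages. The 5p arm of its own hairpin ranked 32 among the 214 compared, and *miR-140* ranked 36. These correlations across 11 libraries describe the pattern and carry no test.

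The biopsies were bulk tissue, in which fewer cells of a type and less RNA per cell cannot be told apart. Of the 10 epithelial miRNAs tested, 8 were lower in Montbéliarde by fold change, with a median log2FC of -0.17 over the list and 0.03 over all tested miRNAs. The summed normalized read count of the list was 411090 to 511218 in Holstein cows and 214258 to 515816 in Montbéliarde cows. None of its miRNAs passed edgeR's test (0 called by edgeR, DESeq2 or limma). Before adjustment 2 had p-values up to 0.05, against 14.2% of all tested miRNAs. These were *miR-141* and *miR-200c*, members of the *miR-200* family that maintains epithelial identity, with log2FC of -0.74 and -0.61. The other members of this family, *miR-200a*, *miR-200b* and *miR-429*, had log2FC of -0.04, -0.10 and -0.33. *miR-205* and *miR-182* were higher in Montbéliarde, with log2FC of 0.38 and 0.05.

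The 6 stromal miRNAs had a median log2FC of 0.56, and 5 of them had a positive sign. Their summed normalized read count was 1513729 to 2305715 in Holstein cows and 1928358 to 3870328 in Montbéliarde cows, highest in Montbéliarde 2, and at least 99.2% of it was *miR-143*, a smooth muscle and fibroblast miRNA. None passed edgeR's test (0 called by edgeR, DESeq2 or limma). Before adjustment 2 had p-values up to 0.05, against 14.2% of all tested miRNAs. These were *miR-143* and *miR-199a-3p*, with log2FC of 0.58 and 0.67. *miR-214* had the largest log2FC of the list, 0.83 with a standard error of 0.42, and did not reach that limit. *miR-199a-5p* and *miR-199b* had log2FC of 0.54 and 0.06, and *miR-145* went the other way, at -0.27.

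Over all 11 libraries, the 3 miRNAs were lower where the epithelial list was higher. Against the mean log2 level of the 10 epithelial miRNAs, r was -0.85 for *miR-140*, -0.85 for *miR-455-5p* and -0.89 for *miR-455-3p*, and rho was -0.77, -0.78 and -0.77. The adjusted permutation p-values over the 6 relations computed with both lists were 0.00300, 0.00204 and 0.00300 for r and 0.0150 for each rho, with n = 11. Without Montbéliarde 2 and Montbéliarde 5, the farthest from the median of the list, r was -0.56, -0.68 and -0.48. Centred on breed means, r was -0.78 for *miR-140*, -0.79 for *miR-455-5p* and -0.89 for *miR-455-3p*. Among the Holstein cows, *miR-140* did not follow this order, as Holstein 5, with the highest epithelial level of 10.48, had the second highest *miR-140* level of the breed, 9.01 on the log2(CPM + 1) scale.

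Against the mean log2 level of the stromal list, r was 0.76 for *miR-140*, 0.78 for *miR-455-5p* and 0.84 for *miR-455-3p*, with adjusted permutation p-values of 0.00986, 0.00907 and 0.00907 (n = 11). Spearman's rho was 0.52, 0.63 and 0.32, with adjusted permutation p-values of 0.131, 0.0672 and 0.342. Without Montbéliarde 2 and Montbéliarde 5, r was 0.20, 0.32 and 0.24, so that the relation over all cows was much weaker without these 2 libraries. Centred on breed means, with all libraries, r was 0.81, 0.87 and 0.81. The 5 Holstein libraries alone are too few for a correlation to be given.

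**Figure D4:**
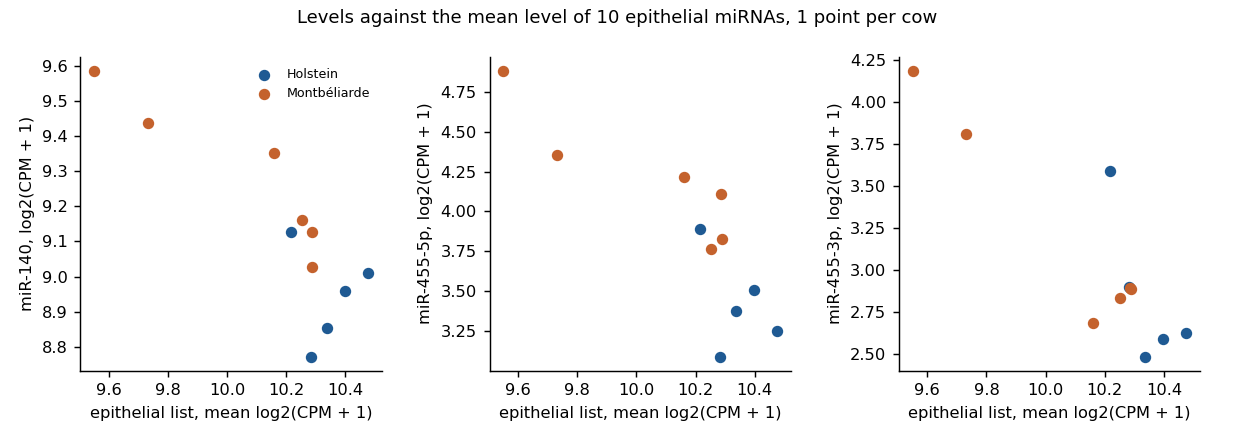
Level of each miRNA on the log2(CPM + 1) scale (vertical axis) against the mean log2(CPM + 1) level of 10 epithelial miRNAs (horizontal axis), with 1 point per cow and the breeds in different colours. Montbéliarde 2 and Montbéliarde 5, at 9.55 and 9.73, lie to the left of the other cows and at the top of each panel.

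With the summed epithelial level as a covariate in edgeR, the breed difference was smaller in all 3. The log2FC was then 0.07 with a standard error of 0.16 for *miR-140*, 0.42 with a standard error of 0.27 for *miR-455-5p* and -0.38 with a standard error of 0.34 for *miR-455-3p*, whose direction turned. With the summed stromal level it was 0.16, 0.46 and -0.24, in the same order. With the mean log2 level of the stromal list, which *miR-143* does not dominate, it was 0.27, 0.65 and 0.07. With log2 library size as the covariate the breed difference was larger in all 3, at 0.44, 1.07 and 0.85. *miR-141* weighed most in the summed epithelial level, with mean normalized read counts of 310902 in Holstein and 188093 in Montbéliarde. No fit used the mean log2 level of the epithelial list as a covariate. None of the 3 miRNAs had an adjusted p of at most 0.05 in any of these fits. The part that the makeup of the biopsies has in the breed difference was not tested.

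Other cell types that a biopsy can hold were followed through their own miRNAs. The summed leukocyte list was 18031 to 26952 in Holstein cows and 17229 to 39422 in Montbéliarde cows, again with Montbéliarde 2 the highest, and 5 of its 5 miRNAs had a positive log2FC, with a median of 0.40. For the 2 products of the endothelial *miR-126* the sums were 251466 to 330168 in Holstein cows and 239684 to 297167 in Montbéliarde cows. The erythroid list was 23603 to 39552 in Holstein cows and 23429 to 57421 in Montbéliarde cows, and the muscle list 618 to 1849 in Holstein cows and 519 to 1622 in Montbéliarde cows. None of the miRNAs in these lists passed edgeR's test, and 0 had p-values up to 0.05 before adjustment. DESeq2 and limma likewise called 0.

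Other miRNAs known to act on cartilage or matrix genes were split between the directions. Of 19 listed, 17 were tested, 9 with a positive and 8 with a negative log2FC and a median of 0.07. None passed edgeR's test (0 called by edgeR, DESeq2 or limma). Before adjustment 1 had a p-value up to 0.05, *miR-29c*, which lowers collagen mRNAs, with a log2FC of -0.44 and a standard error of 0.20, named after its value was seen. *miR-148a*, a miRNA abundant in milk, had a log2FC of -0.50, and *miR-222* one of 0.49, and neither reached that limit.

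**Figure D5:**
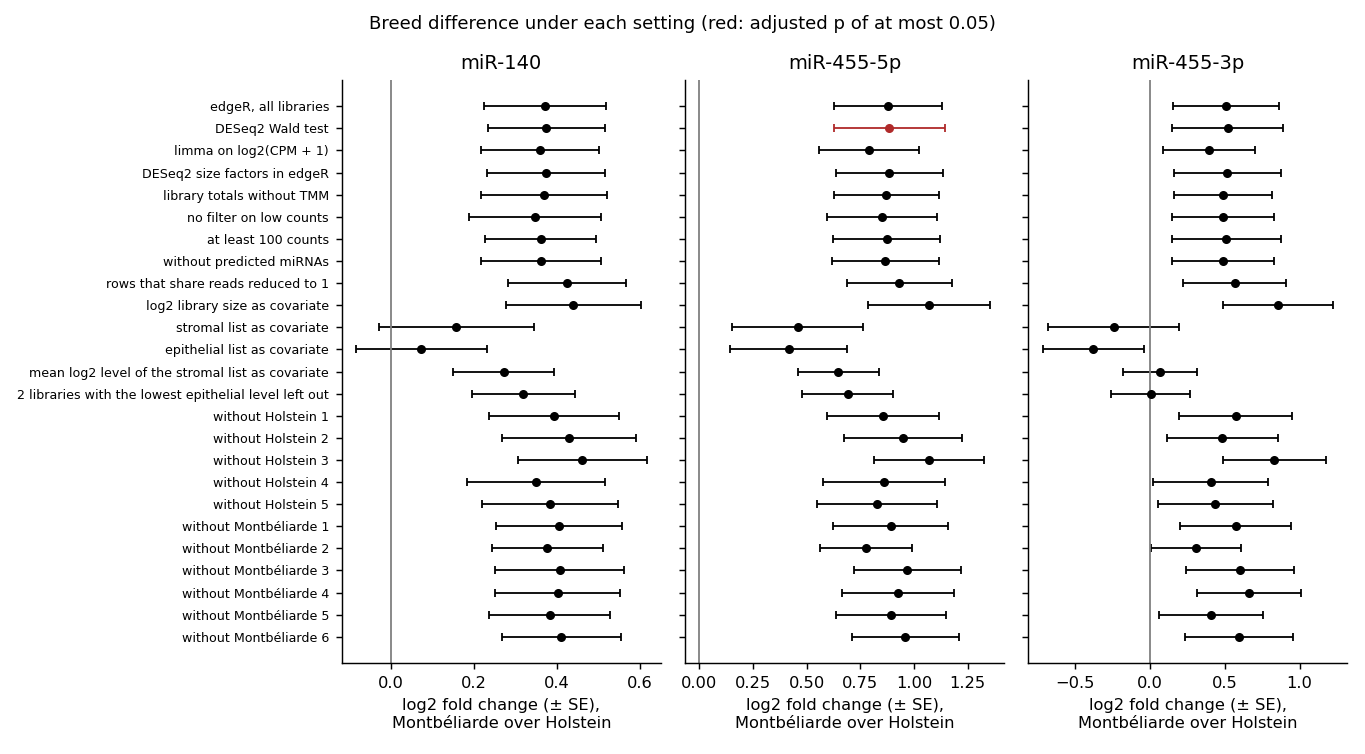
Breed difference of each miRNA (horizontal axis, log2 fold change of Montbéliarde over Holstein, with the standard error as bars) under each way of processing the counts and with single libraries left out. Only *miR-455-5p* under the DESeq2 Wald test, drawn in red, had an adjusted p of at most 0.05, and only *miR-455-3p* fell below 0, with the summed stromal (-0.24) or epithelial (-0.38) level as a covariate.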

How the data were processed

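Small RNA of mammary biopsies was sequenced from 5 Holstein and 6 Montbéliarde cows, 1 library per cow. According to the methods, total RNA was ligated to adaptors and amplified with a TruSeq Small RNA kit. The authors trimmed the adaptors, kept reads of 15 to 40 nt and quantified miRNAs with ncPRO-seq and miRDeep2. The submitters' processing notes name bcl2fastq 2.17.1.14 and DESeq2 1.18.1. The authors deposited a table of raw counts, with a row for each mature miRNA. They also deposited a signal, the normalized read counts, which are the counts divided by DESeq2 size factors, and means of these. The log2 fold change, p-value and adjusted p-value of the authors' own comparison were deposited too and were not used.

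Breeds were compared with edgeR 4.0.16 (TMM, robust quasi-likelihood fit, R 4.3.3) on miRNAs whose counts over all libraries summed to 10 or more, with Benjamini-Hochberg adjustment and a limit of 0.05. DESeq2 1.42.0 and limma 3.58.1 were alternatives. Other settings covered normalization, the filter on low counts, predicted miRNAs, rows that share reads, covariates and each library left out. The default edgeR, DESeq2 and limma fits were also run on simulated counts, and the other settings were not. Ratios were tested by exact permutation (462 arrangements of the breed labels, two-sided by doubling the smaller tail). They used 0.5 added counts, and intervals of their differences came from inverting the test. Correlations used 100000 resamples. Counting error is small for *miR-140* and larger for *miR-455*, as counted reads were between 6087865 and 16808976 per library.

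The miRNAs described and the lists (epithelial, stromal, endothelial, leukocyte, erythroid, muscle, cartilage and matrix) were chosen with earlier results of these data known. Named were the 3 members, up to 3 miRNAs of a list with the largest fold changes, and the 5 miRNAs most correlated with a member. Other miRNAs of the epithelial and stromal lists were named after their values were seen. *miR-203*, *miR-206*, *miR-208a*, *miR-675* and *miR-9-5p* had no row under the listed id.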

Additional observations from a re-analysis of the deposited data

Results flagged for a closer look

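The normalized read count of *miR-455-5p* in Montbéliarde 2, 292, lay far from the other Montbéliarde libraries, the nearest of which was at 184. The gap was 0.639 of the range of the 6 libraries, where 0.625 is the 95% limit for a group of this size. Such a distance was sought in 10 groups of values. Chance gives it in about 1 in 20 groups, a rate per group and not for the whole search. The same library was highest in *miR-140* and *miR-455-3p*, at 7883 and 176, without passing the limit. It also had the lowest mean epithelial level, 9.55 on the log2(CPM + 1) scale. Without it, the log2FC of *miR-455-5p* was 0.77 with a standard error of 0.21.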

How the results depend on the processing

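The log2FC of *miR-140* and *miR-455-5p* kept its sign in each alternative and with each library left out. Over libraries left out, it was between 0.35 and 0.46 for *miR-140*, 0.77 and 1.07 for *miR-455-5p*, and 0.31 and 0.83 for *miR-455-3p*, and adjusted p was at least 0.158, 0.0751 and 0.312. *miR-455-5p* passed the limit with DESeq2 alone (log2FC 0.88, adjusted p = 0.0306), and its adjusted p was up to 0.752 in the others. *miR-455-3p* turned to -0.24 with the stromal and to -0.38 with the epithelial list as covariate. With log2 library size as covariate it rose to 0.85, *miR-140* to 0.44 and *miR-455-5p* to 1.07. The number of miRNAs called, 2, was 21 with DESeq2, 1 without TMM, and 0 with DESeq2's size factors in edgeR, with rows that share reads reduced to 1, and with either summed list as covariate. It was between 0 and 6 over libraries left out. The arm ratio difference was between 0.28 and 0.50 over libraries left out and 0.61 without Montbéliarde 2 and Montbéliarde 5. That of *miR-455* to *miR-140* was between 0.24 and 0.46, 0.17 without Montbéliarde 2 and Montbéliarde 5, 0.49 with the 5p arm alone and 0.09 with the 3p arm alone. Over libraries left out, r was between 0.55 and 0.84 for the arms, 0.88 and 0.97 for *miR-455-5p* with *miR-140*, and 0.55 and 0.86 for *miR-455-3p* with *miR-140*. The last was 0.61 without TMM and 0.22 without its 2 farthest libraries, which are Montbéliarde 2 and Montbéliarde 5. For the arms, r was 0.64 without the 2 farthest libraries and 0.31 without Montbéliarde 2 and Montbéliarde 5. The cause of these changes was not tested. No paired analysis was possible because each library came from a different cow and no pairing of cows between breeds was described. Depth limits *miR-455-3p* most, with 39 reads in Holstein 5.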
